A study of Mus musculus with 6 samples.

Results

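The 3 peroxisome proliferator-activated receptors (PPARs) and 5 genes that fatty acids induce through them were followed in 6 mammary gland samples. The genes were taken by name: Ppara, Ppard and Pparg for the receptors, and Angptl4, Cpt1a, Pdk4, Plin2 and Acaa1a for the targets. The array carried 11 probes for these 8 genes among 39429 probes, found through their RefSeq accessions, and all 11 passed the filter on dim signal. The 8 genes were picked by name from the pathway, with the difference between the diets in these same samples already known, so their values are given as a description without a test of their own. The glands came from female mice with the genotype Trp-53 knockout, taken at 8 weeks of age, and gave 3 samples on a high-fat diet (HFD) and 3 on a control diet (CD). The diet began at 3 weeks of age and lasted 5 weeks, and each sample was hybridised to 1 single-colour (Cy3) array. The study design names 3 biological replicates per diet, while the labels do not say whether each is a separate mouse. The errors measure the spread between these samples, technical variation included. Both groups carry the same knockout label, and neither the composition of the diets nor the kind of knockout allele is given in the sources used here.

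PPARs are nuclear receptors that bind fatty acids and their derivatives, pair with a retinoid X receptor (RXR) and switch on genes that carry, store and burn lipid. PPAR-alpha is best known from liver and other tissues that burn fat, PPAR-delta is found in most tissues, and PPAR-gamma drives the formation of fat cells. The target genes chosen here act at separate steps: release of fatty acids from lipoproteins, entry into mitochondria, oxidation in peroxisomes, storage in droplets and the choice between glucose and fat as fuel.

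Levels below are log2 signals relative to the 75th percentile of each array, and differences are HFD minus CD on that log2 scale, with n = 3 samples per diet. The 75th percentile lay between 1595.6 and 1973.3 intensity units on HFD arrays and between 1326.2 and 1830.1 on CD arrays, no spot was saturated, and the number of arrays limits the precision. Of the 3 slides used, a single one carried arrays of both diets, namely HFD replicates 2 and 3 and CD replicate 1. Differences within that slide are given beside the pooled ones for the 8 genes, and for other named genes that departed most. The labels give mammary glands as the tissue, while their descriptions speak of mammary epithelial cells. Markers of fat cells, the main cells of the gland's fat pad, ranged from near the limit of detection to well above it. Adipoq, which encodes the adipocyte hormone adiponectin, had levels of -6.21, -5.74 and -5.88 on HFD arrays and of -7.33, -6.65 and -6.98 on CD arrays, where the dimmest probe well above background ranged from -7.87 to -6.83 over the arrays. Lep, which encodes leptin, averaged -5.66 ± 0.25 on HFD arrays and -5.83 ± 0.17 on CD arrays (SD, n = 3 each). The keratins of luminal cells were bright, with Krt18 at 8.08 ± 0.44 on HFD arrays and 7.57 ± 0.32 on CD arrays (SD, n = 3 each). Of the same list, chosen after its values were seen, Cfd, an adipocyte protease, had levels of -3.44, -3.22 and -3.03 on HFD arrays and of -5.60, -4.72 and -4.70 on CD arrays. Cebpa, a transcription factor of fat and other cells, lay between -1.79 and -1.36 on HFD arrays and between -1.65 and -1.53 on CD arrays. Adipoq was thus near the limit of detection, and these other markers were clearly measured.

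Among the receptors, Pparg differed between the diets and lay lower after the high-fat diet on every array. Its probe (A_51_P106799, NM_011146) had levels of -2.58, -2.09 and -1.97 on HFD arrays, against -1.48, -1.13 and -0.76 on CD arrays. The groups did not overlap: the highest HFD array lay 0.49 below the lowest CD array. The means were -2.21 ± 0.32 and -1.12 ± 0.36 (SD, n = 3 each), a difference of -1.09 (SE 0.25) or 2.13-fold lower on HFD. This probe is printed in 10 spots per array, whose SD within an array was 0.032 to 0.057, far below the spread between samples. Within the shared slide the difference was smaller, at -0.55. In samples of mixed cells, fewer cells of a type and less RNA per cell cannot be told apart.

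White adipocyte markers, many of them known targets of PPAR-gamma, mostly had the opposite sign from Pparg. Of 12 listed markers 10 were measured, and 9 of these had higher values on HFD. In limma 4 were called as higher at an unadjusted p under 0.05, where 5.88% of all genes were, and 0 at an adjusted p under 0.05. The summed signal of the 10 markers, as a multiple of each array's 75th percentile, ranged from 0.799 to 0.996 on HFD arrays and from 0.601 to 0.754 on CD arrays. The brightest markers, Cebpa and Sncg, weigh most in this linear sum, and Adipoq adds little to it. Cebpa differed by 0.04 (SE 0.15) and Sncg by 0.65 (SE 0.18). Adipoq differed by 1.04 (SE 0.22, adjusted p = 0.222 in limma) and Retn, the adipocyte hormone resistin, by 0.63 (SE 0.52, adjusted p = 0.589 in limma), and within the shared slide they differed by 1.52 and 1.90. Fabp4, a fatty acid carrier of fat cells and a classic PPAR-gamma target, differed by 0.12 (SE 0.56). Fabp4 and Sncg are named beyond the rule, after their values were seen. Plin1, which coats the droplets of fat cells, differed by 0.18 (SE 0.17) at levels from -6.29 to -5.86 on HFD arrays and from -6.41 to -6.09 on CD arrays.

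Ppard, the receptor found in most tissues, had lower values on HFD with overlapping groups. Its probe (A_66_P124715, NM_011145) had levels of 1.51, 2.01 and 1.99 on HFD arrays and of 1.92, 2.43 and 2.57 on CD arrays. HFD replicate 1 was the lowest array, and CD replicate 1 lay among the HFD arrays. The difference was -0.47 (SE 0.23), and within the shared slide it turned to 0.08.

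Ppara, the receptor of fat-burning tissues, had 3 probes, all listed under NM_011144. The brightest hardly differed between the diets, while the other 2 had lower means on HFD arrays. The brightest (A_55_P2071601) had levels of -1.76, -1.81 and -1.72 on HFD arrays and of -1.91, -1.64 and -1.71 on CD arrays, a difference of -0.01 (SE 0.12). The second (A_55_P2055854) had levels of -4.69, -4.03 and -4.65 on HFD arrays and of -3.94, -4.19 and -3.50 on CD arrays, with overlapping groups and a difference of -0.59 (SE 0.25). The first probe thus placed the diets at the same level within its error, and the second placed 2 of 3 HFD arrays below all CD arrays. The dimmest (A_55_P2071596) was well above background on 3 of 3 CD arrays, at -6.28, -6.62 and -5.85, but on 0 of 3 HFD arrays, at -8.01, -6.63 and -7.33. It passed the filter on dim signal only through the CD arrays, and HFD replicate 2 lay within 0.01 of CD replicate 2. The means of its log2 levels differed 1.84-fold, with HFD lower, once the dimmest HFD values were raised to a floor. For this floor each HFD array was given the signal of its dimmest probe well above background wherever the Ppara probe was dimmer still. HFD replicate 2, at -6.63, was not well above background though above the highest such floor of any array (-6.83). The 1.84-fold value is therefore no firm bound. Within the shared slide the brightest, second and dimmest Ppara probes differed by 0.15, -0.40 and -0.69. Which transcripts each probe detects was not tested.

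**Figure D1:**
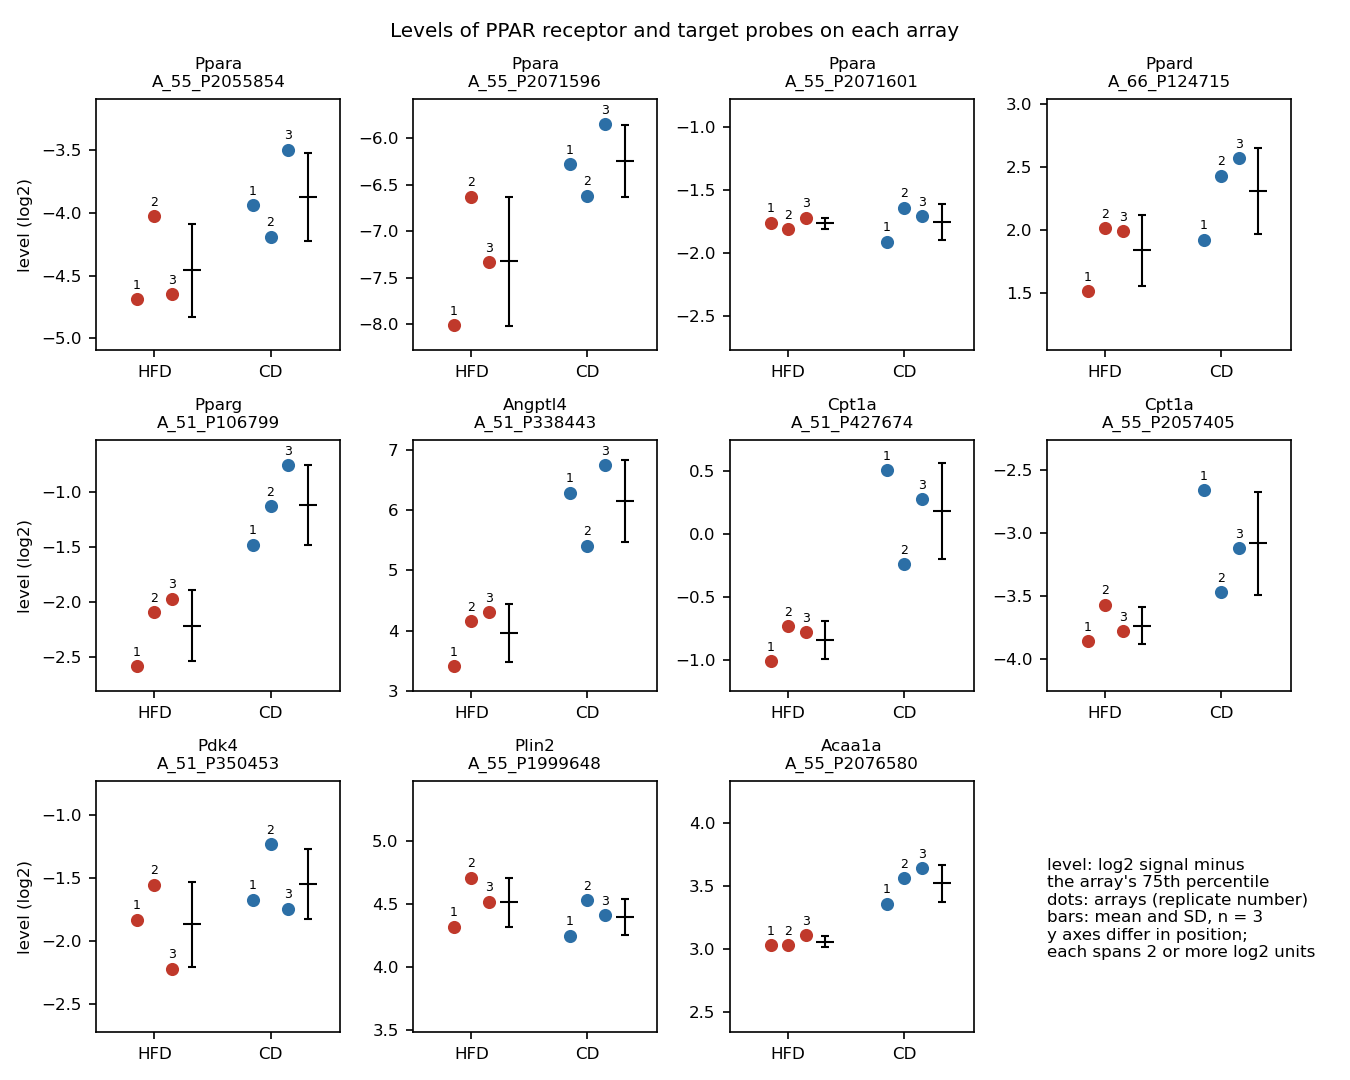
Level of each of the 11 probes on each array, with HFD (red) left of CD (blue); dots are arrays with their replicate number, bars are mean and SD (n = 3), and the y axis is log2 signal relative to the 75th percentile, scaled separately in each panel. Pparg, Angptl4, both Cpt1a probes and Acaa1a had every HFD array below every CD array, as did the dimmest Ppara probe by 0.01, while Plin2 and Pdk4 overlapped.

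Angptl4 had the widest difference of the 8 genes. It encodes a secreted protein that blocks lipoprotein lipase, the enzyme that frees fatty acids from circulating lipoproteins, and it is induced by fatty acids through PPARs and also by fasting, glucocorticoids and low oxygen. Its probe (A_51_P338443, NM_020581) had levels of 3.41, 4.16 and 4.31 on HFD arrays, against 6.29, 5.41 and 6.75 on CD arrays. The groups lay apart by 1.1, and the spread within the CD arrays was wider than within the HFD arrays. The means were 3.96 ± 0.48 on HFD and 6.15 ± 0.68 on CD (SD, n = 3 each), a difference of -2.19 (SE 0.40) or 4.57-fold lower on HFD. The difference was -2.06 within the shared slide and between -2.56 and -1.89 when each array was left out in turn. Of all genes tested, 82 of 23460, Angptl4 among them, had a difference as low or lower. Its partner enzyme Lpl, which was named after its values were seen, differed by -0.56 (SE 0.33).

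Cpt1a, the carnitine palmitoyltransferase that admits long-chain fatty acids to mitochondria and sets the rate of their oxidation, had lower values on HFD on both of its probes (NM_013495). The brighter (A_51_P427674) had levels of -1.01, -0.73 and -0.78 on HFD arrays, against 0.51, -0.24 and 0.28 on CD arrays. The HFD arrays lay close together, and the CD arrays were spread above them. The means were -0.84 ± 0.15 and 0.19 ± 0.39 (SD, n = 3 each), a difference of -1.02 (SE 0.22) or 2.03-fold lower on HFD. The SD over its 10 spots was 0.048 to 0.074 within an array. On the dimmer probe (A_55_P2057405) the levels were -3.86, -3.57 and -3.78 on HFD arrays and -2.66, -3.47 and -3.12 on CD arrays. The groups on that probe were separate by only 0.10, with a difference of -0.65 (SE 0.22). Within the shared slide the differences were -1.26 and -1.01. Cpt1b, the form of the enzyme in muscle and brown fat, differed by 0.09 (SE 0.21, adjusted p = 0.847 in limma).

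Acaa1a encodes a peroxisomal thiolase, which makes the last cut in each round of fatty acid oxidation there. Its probe (A_55_P2076580, NM_130864) had levels of 3.03, 3.03 and 3.11 on HFD arrays, against 3.36, 3.56 and 3.64 on CD arrays. The groups did not overlap, and the HFD arrays were nearly equal. The means were 3.06 ± 0.05 and 3.52 ± 0.14 (SD, n = 3 each), a difference of -0.46 (SE 0.12) or 1.38-fold lower on HFD, and -0.29 within the shared slide. Its close paralog Acaa1b had levels of -2.07, -1.86 and -1.93 on HFD arrays and of -1.64, -1.63 and -1.57 on CD arrays, a difference of -0.34 (SE 0.12, adjusted p = 0.339 in limma). Whether either probe also binds the transcript of the other gene was not tested.

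Plin2 and Pdk4 overlapped between the diets. Plin2, a coat protein of lipid droplets in most cell types that rises with fatty acid load, had levels of 4.32, 4.71 and 4.52 on HFD arrays and of 4.25, 4.53 and 4.41 on CD arrays (A_55_P1999648, NM_007408). The difference was 0.12 (SE 0.15), and 0.37 within the shared slide. Pdk4, a kinase that shuts pyruvate dehydrogenase and so spares glucose when fat is burnt, had levels of -1.83, -1.55 and -2.22 on HFD arrays and of -1.67, -1.23 and -1.74 on CD arrays (A_51_P350453, NM_013743). The difference was -0.32 (SE 0.23), and -0.21 within the shared slide. The difference of Plin2 was smaller than the SD within either diet. In size, that of Pdk4 lay between its SD on CD arrays (0.27) and on HFD arrays (0.34). Among the other pyruvate dehydrogenase kinases, Pdk1 differed by -0.88 (SE 0.36, adjusted p = 0.373 in limma), Pdk2 by -0.73 (SE 0.34, adjusted p = 0.398 in limma) and Pdk3 by -0.18 (SE 0.16, adjusted p = 0.617 in limma).

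The promoters of Cpt1a and Acaa1a, whose groups did not overlap, are shown with that of Plin2, whose groups did, because PPAR and RXR bind as a pair to direct repeats of the hexamer AGGTCA spaced by 1 base. Windows from 250 bases before to 50 bases after a gene's start were taken from RefSeq (GRCm38.p6), and 7 of the 8 genes matched, all but Angptl4, with 9 windows in all. They are Cpt1a at chr19:3323051-3323350 (plus strand), Acaa1a at chr9:119341044-119341343 (plus strand) and Plin2 at chr4:86670010-86670309 (minus strand), each written 5′ to 3′ along the gene. Capitals mark AGGTCA on either strand and, in Plin2, the repeat AGGTCANAGGTCA matched with 2 mismatches.
Cpt1a: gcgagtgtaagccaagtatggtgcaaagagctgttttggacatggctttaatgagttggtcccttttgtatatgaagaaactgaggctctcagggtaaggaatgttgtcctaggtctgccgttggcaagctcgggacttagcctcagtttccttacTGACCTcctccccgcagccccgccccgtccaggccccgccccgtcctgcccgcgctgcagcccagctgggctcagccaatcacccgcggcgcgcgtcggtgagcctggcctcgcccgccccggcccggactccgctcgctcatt
Acaa1a: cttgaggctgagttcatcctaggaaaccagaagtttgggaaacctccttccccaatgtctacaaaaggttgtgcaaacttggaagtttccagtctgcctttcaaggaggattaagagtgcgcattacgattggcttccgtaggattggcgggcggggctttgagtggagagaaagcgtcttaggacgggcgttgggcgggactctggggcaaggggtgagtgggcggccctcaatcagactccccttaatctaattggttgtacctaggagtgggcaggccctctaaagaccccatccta
Plin2: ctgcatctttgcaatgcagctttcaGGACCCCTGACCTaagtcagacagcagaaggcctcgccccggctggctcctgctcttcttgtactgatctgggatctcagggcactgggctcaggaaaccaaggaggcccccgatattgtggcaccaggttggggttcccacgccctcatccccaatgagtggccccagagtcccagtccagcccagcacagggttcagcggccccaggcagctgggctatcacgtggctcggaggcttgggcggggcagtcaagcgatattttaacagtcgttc

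The window of Plin2 held the only direct repeat with up to 2 mismatches among the 9 windows, read on the opposite strand as AGGTCAGGGGTCC and beginning 225 bases before the start on the gene's strand. Such a match, on either strand, occurred in 3.86% of 32851 windows of that length, and an exact AGGTCANAGGTCA in 0.0396% of them and in 0 of the 9. The hexamer AGGTCA, which the repeat in Plin2 contains, was found in Cpt1a 94 bases before the start, in Plin2 and in 2 of 3 windows of Pparg, and in 16.3% of all windows. Acaa1a, Pdk4, Ppara and Ppard held none of these letters in the window. A match describes letters and not binding.

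Counted over 1 probe per gene, 7 of the 8 genes differed in the negative direction. Their median was -0.47, beside -0.01 over all 23460 genes. In 4 of 8 genes (Pparg, Angptl4, Cpt1a and Acaa1a) all HFD arrays lay below all CD arrays, where 8.75% of all genes tested did so, and in 0 of 8 they lay above, where 8.47% did so. In limma 0 of 8 passed an adjusted p of 0.05, as did 0.0171% of all genes (4 genes, all lower on HFD). At an unadjusted p under 0.05, 4 of 8 were called, all lower, where 7.46% of all genes were called as lower, 5.88% as higher and 13.3% in either direction. Since these differences were in view when the genes were proposed, nothing is read from the counts. Within the shared slide the median of the 8 genes was -0.25, and Ppard and Ppara there had small positive differences of 0.08 and 0.15.

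**Figure D2:**
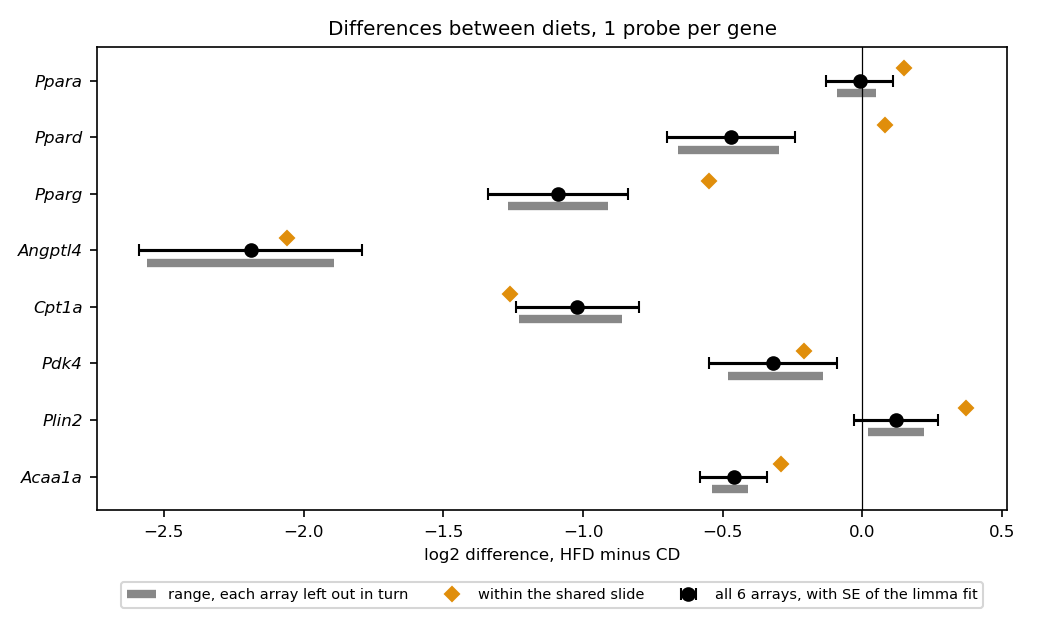
Log2 difference, HFD minus CD, for 1 probe per gene; black points show all 6 arrays with the SE of the limma fit, grey bars the range when each array was left out in turn, and orange diamonds the value within the slide that held both diets. Angptl4 (-2.19), Pparg (-1.09) and Cpt1a (-1.02) lay farthest from 0, and the diamonds of Ppard and Ppara lay on the other side of 0 from their black points.

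The 4 genes with separate groups were all lower on HFD arrays, which by itself raises their correlation over the 6 arrays. Pearson's r was 0.97 between Angptl4 and Cpt1a, 0.96 between Pparg and Acaa1a, and from 0.79 to 0.92 for the other pairs among them, as a description of 6 arrays that share the difference between diets. With the mean of each diet removed, r was 0.82 for Pparg with Acaa1a, 0.81 for Angptl4 with Cpt1a and 0.60 for Pparg with Angptl4. It was 0.17 for Angptl4 with Acaa1a, 0.03 for Pparg with Cpt1a and -0.44 for Cpt1a with Acaa1a. Ppard, a receptor with overlapping groups, followed Pparg closely (r = 0.92, and 0.96 with diet means removed).

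By the pattern over the 6 arrays, the genes most like Angptl4 were Hopx (r = 0.998), Stfa2 (0.997) and Dpep1 (0.996). Those most like Cpt1a were Cnnm2 (0.994), Odc1 (0.993) and Uap1l1 (0.989), and those most like Pparg were Dnaic1 (0.997), Plxna3 (0.996) and Kcnv2 (0.995). For Acaa1a they were Trim56 (0.999), Vps26c (0.998) and Lancl1 (0.997), and for Ppard Tnfrsf10b (0.999), Bean1 (0.997) and Rtl8b (0.995). These were the nearest of 23460 genes or unnamed transcripts over only 6 arrays. The nearest genes of Plin2 were Esam (0.974), Clcf1 (0.974) and Usf1 (0.973), and those of Pdk4 Zfand5 (0.989), 4933433H22Rik (0.980) and Ndrg1 (0.966). For the brightest Ppara probe they were Ammecr1l (0.997), Mad2l1bp (0.994) and Cav1 (0.992).

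The other genes of the pathway were taken from 6 lists written by function, 98 genes that include none of the 8. Of these, 95 were measured, and 36 had higher and 59 lower values on HFD, with a median of -0.07. In limma 0 passed an adjusted p of 0.05, and 2 were called as higher and 9 as lower at an unadjusted p under 0.05. That is 11.6% of the 95, where 13.3% of all genes were called. Separate groups were seen in 11.6% of the pathway genes, where 17.2% of all genes had them. Calls among pathway genes numbered 28 without CD replicate 1, 18 without HFD replicate 3, 5 without CD replicate 2 and 3 without HFD replicate 1 or without CD replicate 3. With slide as a fixed block 6 were called, 5 as higher and 1 as lower, and with slide as a random block 12, 3 as higher and 9 as lower. Among the 11 genes called, the differences of Pdk1 (-0.04), Slc27a4 (-0.10), Acsl5 (0.07) and Nrip1 (0.18) were far smaller within the shared slide, while that of Fabp3 was -1.10 there.

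Receptor partners and cofactors stood at a median of -0.04 over 16 genes, with 1 called as higher and 0 as lower at an unadjusted p under 0.05. That gene was Nrip1, a corepressor of nuclear receptors that holds back fat burning, with levels of 0.54, 0.16 and 0.34 on HFD arrays and of 0.07, -0.68 and -0.88 on CD arrays (difference 0.84, SE 0.27, adjusted p = 0.320 in limma). All HFD arrays lay above all CD arrays, yet within the shared slide the difference was 0.18. Lpin1, a phosphatidate phosphatase that also acts as a coactivator of PPAR-alpha, differed by 0.42 (SE 0.18), and Ncor1, a corepressor of PPARs, by 0.30 (SE 0.14). Within the shared slide these stood at 0.02 for Lpin1, 0.09 for Ncor1 and 0.01 for Rxra. The obligate partners showed differences of -0.32 (SE 0.17) for Rxra, -0.31 (SE 0.18) for Rxrb and -0.10 (SE 0.11) for Rxrg, with overlapping groups for each. Adjusted p for these genes ran from 0.380 for Lpin1 to 0.694 for Rxrg in limma.

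In fatty acid uptake, binding and activation 15 of 16 genes were measured, with a median of 0.08, and 1 was called as higher and 2 as lower at an unadjusted p under 0.05. Fabp3, the fatty acid carrier of heart and muscle, had levels of -4.17, -4.33 and -3.57 on HFD arrays and of -2.85, -3.43 and -3.23 on CD arrays (difference -0.85, SE 0.25, adjusted p = 0.302 in limma). Every HFD array was below every CD array. Slc27a4, a fatty acid transporter, differed by -0.46 (SE 0.18), Slc27a3 of the same family by -0.38 (SE 0.18), and Acsl5, which activates fatty acids with coenzyme A, by 0.50 (SE 0.20). Skeletal muscle markers were mostly lower beside Fabp3: of 12 listed 10 were measured, 7 with lower and 3 with higher values on HFD. At an unadjusted p under 0.05 in limma 6 were called as lower, where 7.46% of all genes were. Acta1 differed by 0.01 (SE 0.24) and Ckm by -0.44 (SE 0.44). Summed signals of the list were 3.91 to 5.30 on HFD arrays and 6.15 to 9.69 on CD arrays. The part of these markers in the difference of Fabp3 was not tested.

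Mitochondrial fatty acid oxidation, the route that Cpt1a feeds, had a median of -0.10 over 19 genes, with 1 called as lower and 0 as higher at an unadjusted p under 0.05. That gene was Acaa2, the mitochondrial thiolase (difference -0.55, SE 0.22, adjusted p = 0.373 in limma). Etfb, which passes electrons from the first oxidation step to the respiratory chain, differed by -0.52 (SE 0.22). Ech1 and Decr1, which prepare unsaturated fatty acids for oxidation, differed by -0.67 (SE 0.29) and -0.39 (SE 0.21). Within the shared slide little of this was left, with -0.08 for Etfb, -0.15 for Ech1 and 0.04 for Decr1. The widest of the 19 differences was that of Ech1, beside -1.02 for Cpt1a, and the difference between these values was not tested.

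Peroxisomal oxidation, where Acaa1a acts, had a median of -0.06 over 15 measured genes of 16, with 2 called as lower and 0 as higher at an unadjusted p under 0.05. One of these was Acaa1b, the paralog of Acaa1a described above, whose groups were separate. Ehhadh, the bifunctional enzyme of the middle steps, had the opposite sign from Acaa1a, with levels of -3.86, -3.86 and -3.76 on HFD arrays and of -3.87, -4.38 and -4.27 on CD arrays (difference 0.34, SE 0.16, adjusted p = 0.399 in limma). Its HFD arrays lay above all CD arrays, though above CD replicate 1 by very little, and within the shared slide the difference was 0.06.

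Fasting and ketone targets had a median of -0.14 over 15 measured genes of 16, with 2 called as lower, Txnip and Pdk1. Txnip, an arrestin-like protein that limits glucose uptake, differed by -0.67 (SE 0.24, adjusted p = 0.346 in limma). Bdh1, an enzyme of ketone body metabolism, and Acot1, a thioesterase induced through PPAR-alpha, had positive differences of 0.70 (SE 0.29) and 0.55 (SE 0.26), with overlapping groups. Within the shared slide the difference of Bdh1 was -0.02 and that of Acot1 0.32.

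Lipid droplet proteins and lipases had a median of -0.13 over 15 genes, which turned to 0.48 with normexp background, 0.21 above the median of all genes there. In the list 2 were called as lower and 0 as higher at an unadjusted p under 0.05. Hilpda, a droplet protein that blocks the main triglyceride lipase and is induced by fatty acids and low oxygen, had levels of 0.82, 0.91 and 1.19 on HFD arrays, against 1.45, 1.53 and 1.69 on CD arrays (difference -0.58, SE 0.15, adjusted p = 0.261 in limma). Plin3, a droplet coat protein like Plin2, had levels of 2.50, 2.65 and 3.05 on HFD arrays and of 3.06, 3.35 and 3.48 on CD arrays (difference -0.57, SE 0.19, adjusted p = 0.338 in limma). Both had separate groups, though Plin3 by only 0.01, and within the shared slide Plin3 stood at -0.21. The other perilipins stood at 0.18 (Plin1), 0.23 (Plin4, SE 0.21) and -0.23 (Plin5, SE 0.38), beside 0.12 for Plin2, and differences between perilipins were not tested. Lipe, the hormone-sensitive lipase, differed by -0.29 (SE 0.13) and Cidea, a droplet protein of brown fat, by -0.80 (SE 0.37).

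**Figure D3:**
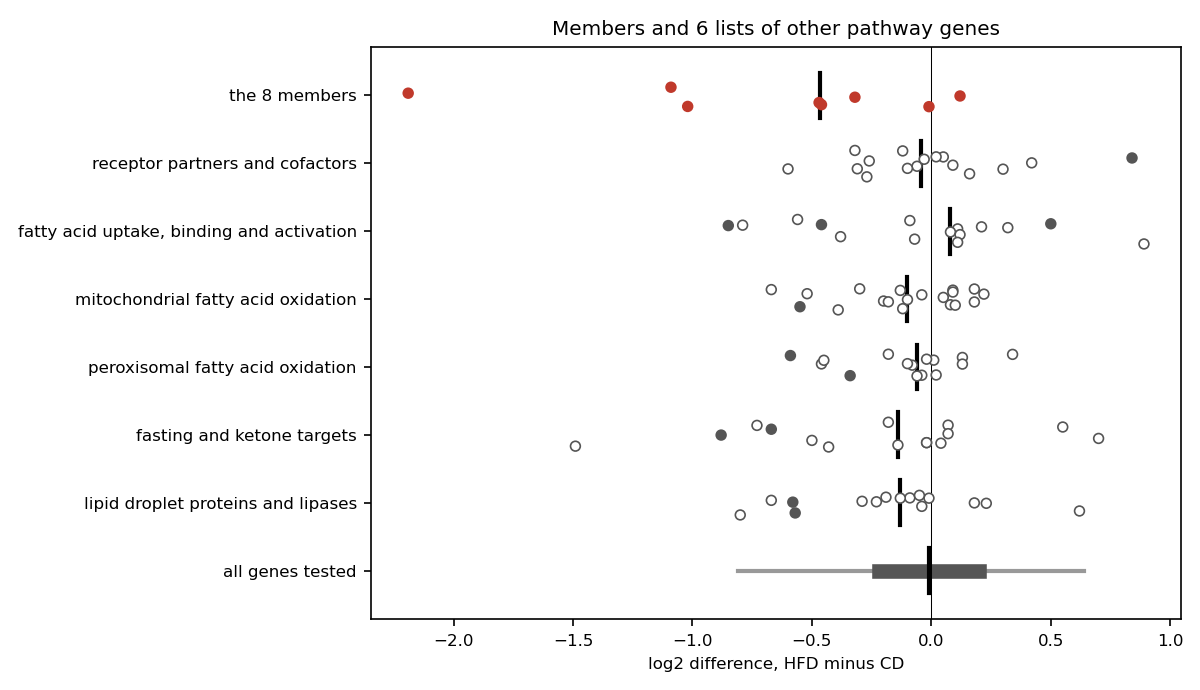
Log2 difference, HFD minus CD, of the 8 genes (red) and of each measured gene in the 6 other pathway lists; filled grey points had an unadjusted p under 0.05 in limma, short black lines are medians, and the lowest row gives the median, the middle 50% and the range from the 5th to the 95th percentile of all genes tested. The list medians lay between -0.14 and 0.08, and the median of the 8 genes at -0.47. The 8 genes were proposed with these differences in view, so nothing is read from the gap between these medians.

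Several cell type markers differed with the diets, and their part in the differences above was not tested. Over all genes, 7.46% were called as lower and 5.88% as higher at an unadjusted p under 0.05 in limma. Fibroblast markers had summed signals of 207, 224 and 525 on HFD arrays and of 436, 668 and 747 on CD arrays. In that list 12 of 12 genes were measured and 5 were called as lower at an unadjusted p under 0.05, among them Pdgfra (-1.66, SE 0.37). The sum of HFD replicate 3 lay inside the CD range. Basal epithelial markers had sums of 286, 245 and 273 on HFD arrays, against 118 to 170 on CD arrays, with 7 of 11 measured genes called as higher. Luminal markers had sums of 391, 473 and 244 on HFD arrays and of 230, 306 and 205 on CD arrays, with 3 of 12 called as higher. Brown adipocyte markers had sums of 1.74, 1.81 and 2.58 on HFD arrays, against 2.87, 2.92 and 3.01 on CD arrays. The brightest weigh most in this sum: Ebf2 differed by -0.26 (SE 0.27), Cox7a1 by -1.04 (SE 0.39) and Dio2 by -0.48 (SE 0.61). Ebf2 and Cox7a1 are named beyond the rule, after their values were seen. In that list 5 of 9 measured genes were called as lower. Ucp1, the defining gene of brown fat, was among them, though well above background on only 1 of 3 HFD arrays, against 3 of 3 CD arrays. Macrophage sums overlapped (10.7 to 16.1 on HFD arrays, 13.5 to 15.3 on CD arrays), as did endothelial sums (13.0 to 26.7 on HFD arrays, 13.3 to 23.9 on CD arrays) and keratinocyte sums (4.58 to 6.68 on HFD arrays, 2.97 to 5.15 on CD arrays), although 3 of 8 measured keratinocyte markers were called as higher, among them Krtdap (2.21, SE 0.31).

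**Figure D4:**
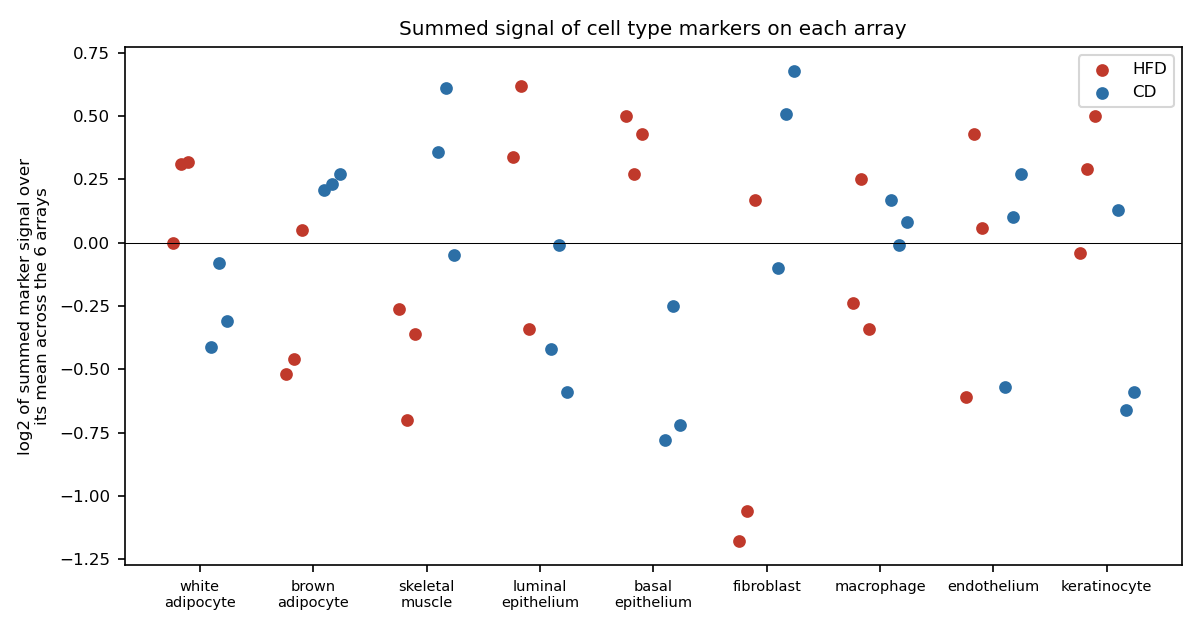
Summed linear signal of the measured markers of each cell type on each array, as log2 of its ratio to the mean over the 6 arrays, with HFD (red) left of CD (blue) and replicates 1 to 3 from left to right in each group. Basal epithelial and white adipocyte sums lay higher, and brown adipocyte and skeletal muscle sums lower, on all HFD arrays, while fibroblast, luminal, macrophage, endothelial and keratinocyte sums overlapped. The brightest markers of a list weigh most in its sum.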

How the data were processed

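The sample titles gave groups and replicate numbers. Per the file headers, the arrays were read with Agilent Feature Extraction 11.0.1.1 on a design annotated to mm9, and the deposited scanner files hold intensity on a linear scale: a background-subtracted processed signal and the median spot and background signals. The deposited table of 30608 probes holds the same intensity values divided by a constant per array, close to the 75th percentile (scanner signal over that percentile was 0.996 to 0.9983 times the deposited value); it is linear and uncentred, with column medians of 0.134 to 0.14.

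Here control spots and outlier-flagged spots were left out and spots of 1 probe averaged, and 111 probes were dropped because some array had no usable spot. Of 39429 probes, 27427 matched 1 symbol through RefSeq accessions (GRCm38.p6 gene table, used for names only). A probe was kept if 3 or more arrays had it well above background (28689 probes), and the brightest probe of each gene was tested, 23460 genes or unnamed transcripts in all. SEs of second probes come from a fit of every kept probe. The two-sided test of HFD minus CD on log2 values of the deposited signal was limma's moderated one (version 3.58.1, R 4.3.3), with p-values adjusted by Benjamini-Hochberg across all genes and a threshold of 0.05. The method was tested on simulated data. The 8 genes, the lists and the settings were chosen with earlier results of these data known. The genes named are the 8; in each pathway list the 4 with the smallest p and relatives within a family; the first 3 of each marker list; and the 3 genes nearest to each of the 8, except where the text says otherwise; some genes the rule would name are not reported here.

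Alternatives covered scaling, background, filter, floor, probe rule, variance, array weights, slide and replicate blocks, the deposited table and leaving out each array.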

Additional observations from a re-analysis of the deposited data

How the results depend on the processing

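The median of the 8 genes (-0.47) stayed negative in all 20 other settings, from -0.62 to -0.25, the latter with slide as a fixed block. Angptl4 stayed between -2.57 and -1.89, Cpt1a between -1.26 and -0.84, Pparg between -1.38 and -0.55 and Acaa1a between -0.59 and -0.29. With normexp background and the 75th percentile the median of all genes was 0.27, and relative to it Angptl4 stood at -2.61, Pparg at -0.97, Cpt1a at -1.16, Acaa1a at -0.86, Pdk4 at -0.22 and Plin2 at -0.29 (0.05 and -0.02 before that shift). With the mean of its probes Ppara differed by -0.55. The count of genes past an adjusted p of 0.05 (4) became 0 with quantile normalization, normexp, no filter, slide as a fixed block and the replicate block, 2 with median centring, 7 with probes well above background on all arrays and 5408 with array weights, which gave CD replicate 3 a weight of 4.69 and CD replicate 1 a weight of 0.34 and called 5 of the 8 genes and 28 other pathway genes. In the other settings 0 of the 8 passed. At an unadjusted p under 0.05 the count of all genes (3129) was 1101 with normexp, 1232 with slide as a fixed block and 9791 with array weights, and that of pathway genes (11) was 7, 6 and 35 in these settings. Leaving out each array in turn gave 0 to 37 genes at the adjusted threshold (37 without HFD replicate 3, otherwise 0), 1413 to 5425 at the unadjusted one, 3 to 28 pathway genes (3 without HFD replicate 1 or CD replicate 3, 28 without CD replicate 1) and a median of the 8 genes of -0.60 to -0.39. Directions turned with normexp for Rxra (0.28), Acaa1b (0.0015) and Lipe (0.58), which stood at 0.01, -0.27 and 0.31 relative to the median of all genes. Slide as a fixed block turned Rxra (0.01), Decr1 (0.04), Bdh1 (-0.02), Ppard (0.08) and Ppara (0.15), and the deposited table turned Ncor1 (-0.12). List medians turned with normexp for lipid droplet genes (0.48), receptor partners (0.06), peroxisomal genes (0.02) and uptake genes (-0.01). Relative to the median of all genes these stood at 0.21, -0.21, -0.25 and -0.28. With slide as a fixed block list medians turned for receptor partners (0.08), mitochondrial genes (0.04), peroxisomal genes (0.02), fasting targets (0.06) and uptake genes (-0.06). That of lipid droplet genes was -0.29 there. The cause of these turns was not tested. Same-numbered samples correlated at 0.33, -0.14 and 0.25 in their deviations from the diet means. HFD replicates 1 and 3 correlated best with the CD replicate of the same number, and HFD replicate 2 with CD replicate 1 (0.13). With so few samples these values cannot decide whether the numbers pair the samples. At an unadjusted p under 0.05 in limma the replicate block gave 22 pathway genes and 4044 of all genes. Signal close to background limits the dimmest Ppara probe, Adipoq, Ucp1 and Ppargc1a, among others.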

Other observations

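Beyond the genes the rule named, the widest difference in the pathway lists was that of Creb3l3, a liver and gut transcription factor of fasting that works with PPAR-alpha, chosen here after its values were seen, as were Fgf21, Cd36 and Ppargc1a. It had levels of -4.31, -4.61 and -2.54 on HFD arrays and of -3.64, -1.71 and -1.65 on CD arrays, a difference of -1.49 (SE 0.74, adjusted p = 0.410 in limma). HFD replicate 3 and CD replicate 1 lay inside the range of the other diet. Fgf21, a hormone induced by PPAR-alpha in fasting liver, had levels of -2.34, -2.81 and -0.74 on HFD arrays and of -3.25, -0.44 and -1.77 on CD arrays, with a difference of -0.14 (SE 0.82), and here too HFD replicate 3 and CD replicate 1 were the extremes of their diets. Cd36, a fatty acid transporter and PPAR target, had levels of -4.55, -2.86 and -3.95 on HFD arrays and of -5.57, -4.46 and -4 on CD arrays, a difference of 0.89 (SE 0.55, adjusted p = 0.480 in limma). The order of the arrays in Cd36 differed from that in Pparg: HFD replicate 1, the lowest array for Pparg, lay below 2 of 3 CD arrays for Cd36 as well, while HFD replicate 2 was the highest of all. Ppargc1a, the coactivator of PPARs in brown fat and muscle, was dim, with levels of -6.38, -7.00 and -6.92 on HFD arrays and of -4.73, -7.81 and -5.96 on CD arrays.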
